A study of Mus musculus with 2 samples.

Results

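The 5S ribosomal RNA gene array of the mouse lies on the distal part of chromosome 8, and a dense block of ERRα windows was listed at the place given for it on the mm9 build. The block was chosen by position and density: its members are the windows of the peak list that lie on chromosome 8 between 126062651 and 126147675 (counted from 1), which gave 74 windows of 3225 in the list. The choice used the positions themselves, so the number and crowding of these windows are a description and nothing was tested on them. The windows came from C2C12 myotubes, fused cells of a mouse myoblast line. They had been differentiated for 72 h in 2% horse serum, and an adenovirus had then driven over-expression of FLAG-tagged PGC-1α for 48 h. The study compared 1 library immunoprecipitated with a rabbit monoclonal antibody to ERRα against 1 library of whole-cell extract DNA (input) from cells treated in the same way. PGC-1α was raised in both, and no culture without the virus was compared. With 1 library on each side there is no replicate check, and the list holds positions only, without a height, read count or p-value for any window.

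The 5S rRNA is a short RNA of the large ribosomal subunit. Its genes are repeated head to tail in an array that is separate from the genes of the other ribosomal RNAs, each copy being a small transcribed region followed by a longer spacer. RNA polymerase III transcribes them from a promoter inside the gene, which the factor TFIIIA recognises. ERRα, the product of Esrra, is a nuclear receptor. It acts on RNA polymerase II genes of mitochondrial metabolism, with PGC-1α (product of Ppargc1a) as its coactivator. Copies of a tandem array are nearly alike in sequence, so a short read from one copy can often be aligned to many. The sources used here do not say how reads with several possible places were handled.

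The place of the array was set against a gene table by gene order only, since the table is on another build, GRCm38.p6. There, a stretch of 50 neighbouring entries of chromosome 8 forms the 5S array, 48 of them annotated as rRNA and 2 as pseudogenes. The entry named Rn5s, the reference mouse 5S gene, is number 36 of the 50, and the pseudogene Rn5s-ps1 follows after 1 further copy. Of the others, 41 carry n-R5s symbols and 7 carry Gm symbols. On the proximal side the nearest genes are Gas8, which encodes a part of the dynein regulatory complex of cilia, then Dbndd1 and Afg3l1. On the distal side the entries Gm23647 (a pseudogene), Gm19600 and Gm35930 (both long noncoding RNAs) come first. The first distal protein-coding gene is Rhou, followed by Rab4a, a GTPase of endosomal recycling, then Ccsap and then Acta1, the skeletal muscle α-actin gene. The order thus places Acta1 distal of the array with 3 protein-coding genes between. Of the 1043 protein-coding genes of the chromosome, 95.7% lie proximal of the array. Of the 176 ERRα windows of chromosome 8 outside the block, 161 (91.5%) lay proximal of it and 15 distal. These orders place both the array and the block near the distal end of the chromosome. They do not tie a single window to a single gene copy, and an annotation of mm9 was not used here. The table also names 28 entries of the 5S kind outside the array, on 15 chromosomes, of which 17 are pseudogenes. Whether windows lie at those copies was not analysed here.

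The block ran over 85.0 kb and stood alone. Its first window was at 126062651 to 126062850 and its last at 126147476 to 126147675. The nearest window outside on the proximal side, at 125365026 to 125365225, was 697 kb away, and the nearest on the distal side, at 126630776 to 126630975, was 483 kb away. The block was therefore separated from its neighbours by several times its own length, and any distance from 2 to 100 kb for joining windows gave the same 74. Each window was 200 bp wide, and together they covered 14.8 kb, or 17.4% of the block. Elsewhere on chromosome 8 the median distance between neighbouring windows was 156 kb, and 13 of 175 such distances were 2 kb or less.

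Within the block, neighbouring windows were 350 to 1950 bp apart, measured from start to start, with a median of 1150 bp and quartiles of 575 and 1675 bp. Many of the 73 distances gathered in a few ranges. There were 22 between 1600 and 1800 bp, 13 between 1000 and 1300 bp and 23 between 500 and 700 bp, but 0 between 700 and 1000 bp. The others were 9 between 1300 and 1600 bp, 3 between 1800 and 2000 bp and 3 below 400 bp, so from 1000 bp upward the distances left no wide gap. The most frequent single values were 575 bp, which occurred 11 times, 1700 bp, which occurred 10 times, and 1125 bp, which occurred 6 times. The values 575 and 1125 add up to 1700. The closest pair started at 126086676 and 126087026, and the most distant neighbours at 126120301 and 126122251.

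**Figure D1:**
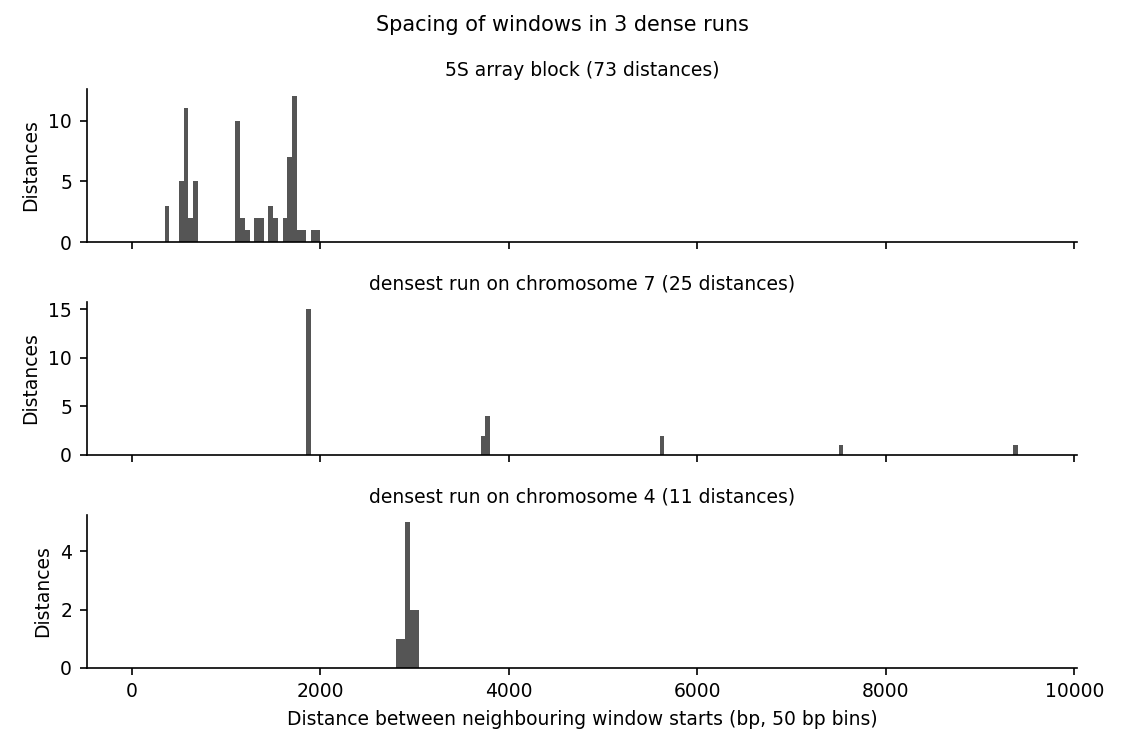
Numbers of distances between neighbouring window starts (bp, bins of 50 bp) in the 5S array block and in the densest runs of chromosomes 7 and 4. The 5S block has its tallest bars near 575, 1125 and 1700 bp, with other distances between, while the chromosome 7 run has distances near 1875 bp and its multiples and the chromosome 4 run lies between 2825 and 3000 bp.

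Taking every pair of windows and not only neighbours, 1700 bp was the distance shared by the most windows. At that distance, within 25 bp, 47 of the 74 windows (63.5%) had another window. In the rest of the list 20 of 3151 windows (0.635%) did, but those windows are far sparser, so the values are given as a description. Distances near its multiples were also frequent, with 46 windows at 3375 bp and 38 at 6775 bp. Pairs within 50 bp of 1694, 3388, 5082 and 6776 bp numbered 36, 34, 27 and 29. The spacing therefore carried on over several steps. Over the whole block, 530 of the 2701 pairs (19.6%) lay within 50 bp of a whole multiple of 1694 bp, a band that covers 5.90% of that length. At the midpoints between multiples, 0 of the pairs lay within 50 bp. The length of 1694 bp was itself fitted to these 74 starts, as described below. More pairs near its multiples than the share of the band were thus built in, and these values are a description.

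**Figure D2:**
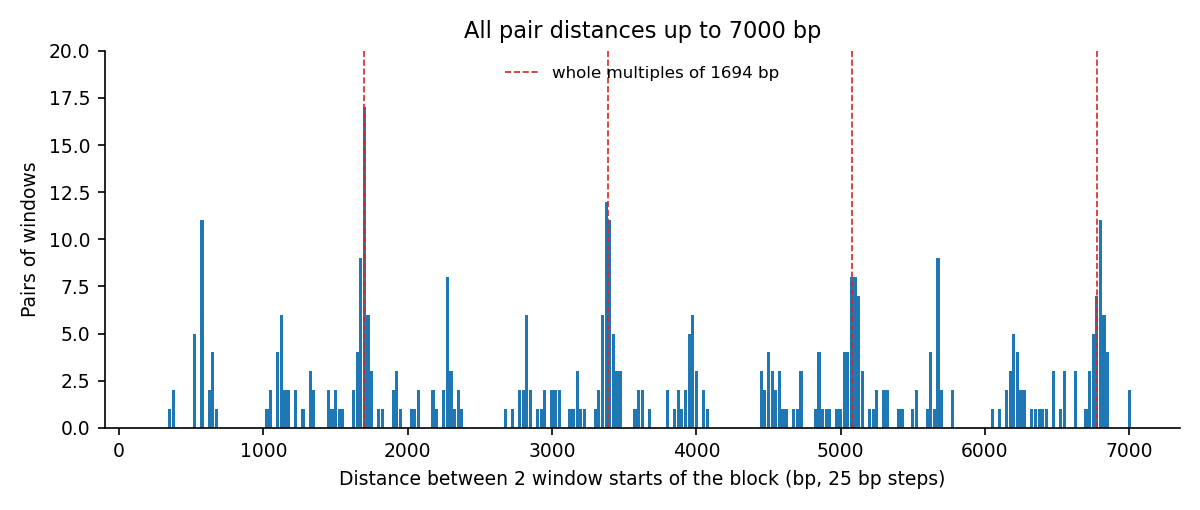
Number of pairs of windows in the block at each start-to-start distance up to 7000 bp, in steps of 25 bp, with dashed lines at whole multiples of 1694 bp. The highest bar, 17 pairs, is at 1700 bp, and bars of 12 and 11 pairs stand at 3375 and 3400 bp. Further peaks stand away from the dashed lines, such as 11 pairs at 575 bp, 8 at 2275 bp and 9 at 5675 bp.

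The length of the repeating unit was estimated by folding the window starts on each length from 500 to 5000 bp and measuring how well they lined up (the mean resultant length, which is 0 for evenly spread offsets and 1 for identical ones). Near the most frequent distance the best fold was 1694 bp, with a resultant of 0.55. Lengths from 1691 to 1697 bp came within 2% of that value. For the 176 other windows of chromosome 8 the resultant at 1694 bp was 0.054. That length was chosen on the block's own starts and the other windows are far sparser, so the values are given as a description. A shorter fold, 565 bp, lined the starts up better, with a resultant of 0.71. As 3 times 565 is 1695, this fold lays 3 places of a single longer unit over each other, and the offsets described next show how often each place was filled. The proximal 37 windows alone gave 1695 bp and the distal 37 gave 1690 bp, so each part of the block held nearly the same unit.

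**Figure D3:**
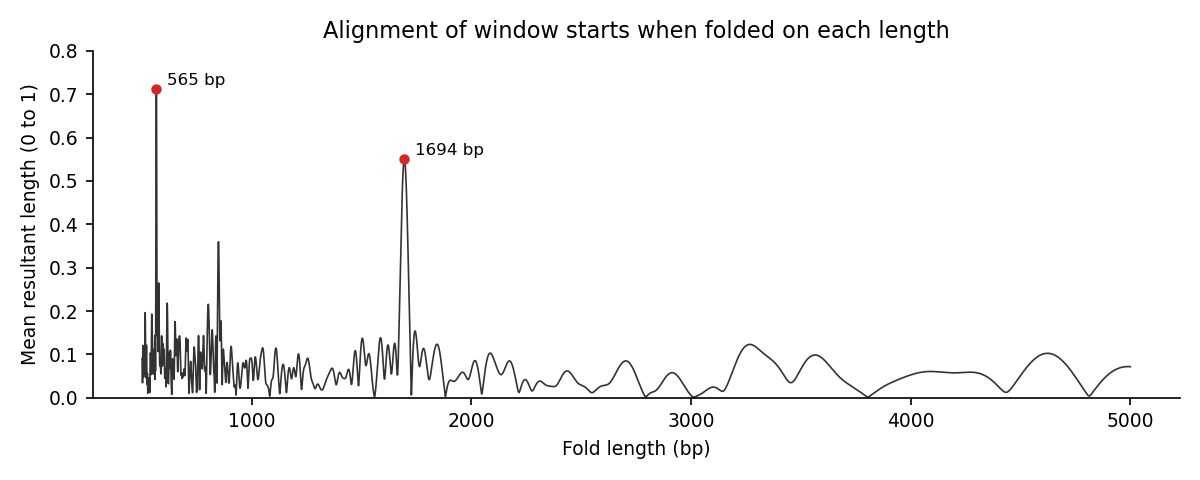
Mean resultant length (0 to 1) of the 74 window starts folded on each length from 500 to 5000 bp. The highest peak is at 565 bp (0.71) and the next at 1694 bp (0.55).

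Folded on 1694 bp, the block held 51 units, and every one of the 51 contained at least 1 window. Windows sat at 3 positions within the unit, when positions are taken as groups of offsets at least 100 bp apart. The first position held 50 windows, the second 20 and the third 4. Measured from start to start, the largest gaps between these positions were 554, 355 and 259 bp. Each window is 200 bp wide, so the stretches without a window were shorter. There were 31 units with 1 window, 17 with 2 and 3 with 3, a mean of 1.45 windows per unit. The number of units, 51, stands beside the 50 5S entries of the gene table. Whether mm9 holds as many copies was not checked.

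**Figure D4:**
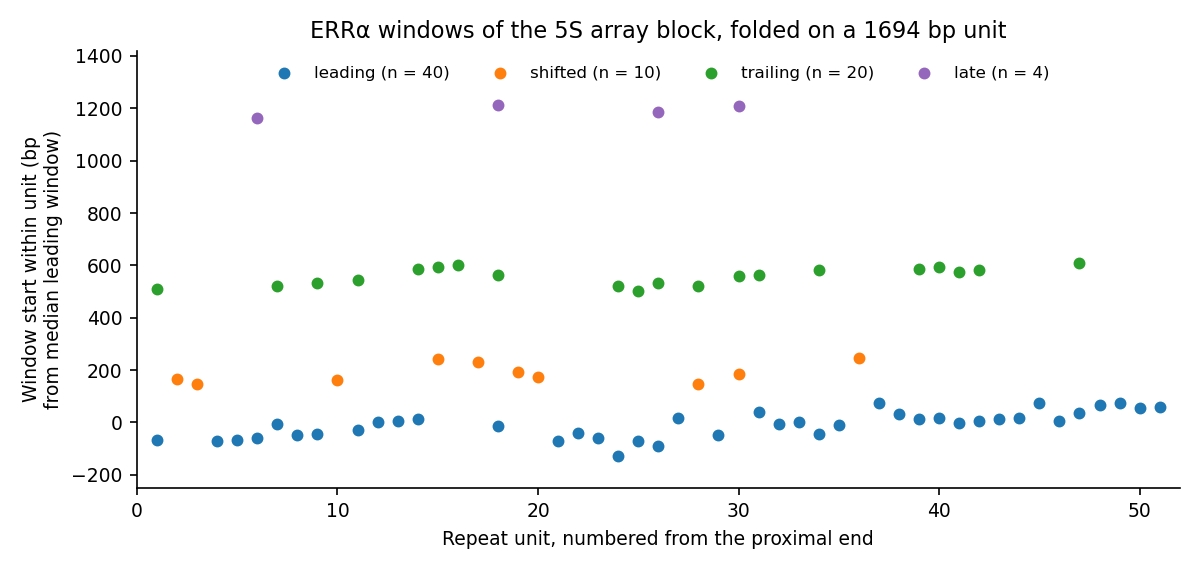
Each point is an ERRα window of the block, placed by its unit of 1694 bp (horizontal axis, numbered from the proximal end) and by its start within the unit (vertical axis, bp from the median leading window). The leading and shifted windows together make the first position, with 1 window in 50 of 51 units. The trailing windows lie near 563 bp and the late windows near 1196.5 bp.

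The first position was filled in almost every unit and never by more than 1 window. Of the 51 units, 50 had exactly 1 window there, and unit 16 had none. Unit 16 held 1 window, at the second position, from 126088726 to 126088925. The same counts were found with unit lengths of 1691, 1695, 1696 and 1697 bp.

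With groups taken at least 50 bp apart, the first position split into 2 parts. Their start offsets do not overlap by this definition, and a gap of 71 bp lay between them. The 200 bp windows of the 2 parts cover overlapping stretches of the unit. Of the windows, 40 formed a leading part, with starts from -127.5 to 75.5 bp around their median. The other 10 formed a shifted part, 146.5 to 244.5 bp after it, with a median of 178.5 bp. No unit held both, and unit 16 held neither. The medians of the parts lie 178.5 bp apart, while the closest 2 window starts anywhere in the list were 250 bp apart. The shifted windows were in units 2, 3, 10, 15, 17, 19, 20, 28, 30 and 36. Of these, 7 were in units 1 to 26 and 3 in units 27 to 51, and from unit 37 on every unit had a leading window.

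Leading windows were grouped by their offset on the 1694 bp fold, and the shifted windows were left out. Steps between leading windows of adjacent units were therefore bound to lie near that length, and are given as a description. Adjacent units both had a leading window 32 times. The step from one leading window to the next was then 1625 to 1800 bp, with a median of 1700 bp and an SD of 38.0 bp. Exactly 1700 bp was found 12 times, and 22 of the 32 steps were between 1675 and 1725 bp, the resolution of the list being 25 bp. A straight line through the 40 leading starts rose by 1696 bp per unit, with a residual SD of 37.4 bp. The 20 windows of the second position gave 1695 bp per unit with a residual SD of 29.2 bp. The units were numbered and the windows grouped on the 1694 bp fold. Both slopes were therefore bound to lie near that length, with small residuals, and are given as a description. The leading windows strayed from their line by at most 109 bp, in unit 24, where the window started at 126101551.

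The second position, called trailing here, was filled in 20 of the 51 units (39.2%). Its offsets ran from 503.5 to 610.5 bp after the median leading window, with a median of 563 bp and an SD of 33.1 bp. Of the 20 units, 19 also had a window at the first position, 16 of them a leading and 3 a shifted one. From the leading to the trailing window of the same unit the distance was 525 to 650 bp with a median of 575 bp, and it was exactly 575 bp in 11 of the 16. From a trailing window to the leading window of the next unit, in 14 cases, it was 1100 to 1175 bp with a median of 1125 bp. These are the steps of 575 and 1125 bp seen among neighbours. The 3 shortest distances of the block, one of 350 bp and 2 of 375 bp, were those from a shifted to a trailing window, in units 15, 28 and 30.

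Trailing windows were spread along the block. There were 11 in units 1 to 26 and 9 in units 27 to 51. The longest stretch of units with one was 4, from unit 39 to unit 42, where windows started at 126127101 and 126127676, 126128801 and 126129376, 126130476 and 126131051, and 126132176 and 126132751. In those 4 units each pair was 575 bp apart. The longest stretches without one were 5 units long, from unit 2 to unit 6 and from unit 19 to unit 23.

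The third position, called late here, was filled in 4 units, numbers 6, 18, 26 and 30, by the windows at 126072351 to 126072550, 126092726 to 126092925, 126106251 to 126106450 and 126113051 to 126113250. Their offsets were 1164.5 to 1211.5 bp after the median leading window, with a median of 1196.5 bp. In 3 of the 4 units, all but unit 6, the trailing position was filled as well. Units 18, 26 and 30 were the units with 3 windows. In unit 26 these started at 126104976, 126105601 and 126106251, 625 and 650 bp apart, and the first window of unit 27 followed after 525 bp. In unit 18 the corresponding steps were 575, 650 and 675 bp, and in unit 30, where the first window was a shifted one, they were 375, 650 and 525 bp.

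The block was set beside 2 other dense runs of the list, the 26 windows on chromosome 7 from 66764076 to 66842850 and the 12 windows on chromosome 4 from 88419676 to 88452075. Each was the run with the most windows on its chromosome, with neighbouring starts at most 10 kb apart. What the comparison shows depends on how the fold length is chosen. By the rule that gave 1694 bp for the 5S block, with 3 positions, 1.45 windows per unit and 51 of 51 units filled, the chromosome 7 run had a unit of 3742 bp with a resultant of 0.23, 2 positions, 1.18 windows per unit and 19 of 22 units filled. The chromosome 4 run had a unit of 2924 bp with a resultant of 0.997, 1 position and 12 of 12 units filled. With any fold from 500 to 5000 bp allowed, each run had 1 position, meaning that its offsets were not split into groups at least 100 bp apart. Within that position the starts were spread more widely in the 5S block than in the other 2 runs. The 5S block then folded on 565 bp with a resultant of 0.71 and 74 of 151 units filled, the chromosome 7 run on 1872 bp with a resultant of 0.999 and 26 of 43 filled, and the chromosome 4 run on 2924 bp as before. For the chromosome 7 run, 3742 bp is close to 2 times 1872 bp, so its 2 positions became 1 on the shorter fold. The runs differ in number of windows, and no difference between them was tested.

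The peak list has neither sequence nor read counts, and the position of the 5S gene within the unit was not determined, so the 3 positions cannot be assigned to gene or spacer. Whether reads shared between tandem copies account for the windows was not tested, because the list holds no reads. The values given are a window in each of 51 units, 1 window at the first position in 50 of them, and other positions filled in 20 and 4 of them only. More than 1 window at the first position had little room, as starts in the list were at least 250 bp apart.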

How the data were processed

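ERRα ChIP-seq was done on 1 immunoprecipitated and 1 input library, grouped by sample titles. Bowtie 0.12.7 and mm9 are named in the submitters' processing notes; the sources used here do not give the peak caller, its threshold, the handling of reads with several places or the depth. The deposited list has 3 columns, chromosome, start and end; other values are not in it. Positions are printed from 1.

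Members were taken by their position, and members and lists were chosen with earlier results of these data known. Pair distances from 500 to 5000 bp were scanned every 25 bp with a tolerance of 25 bp. Fold lengths were scanned in steps of 1 bp; the unit is the best fold within 5% of the shortest distance held by at least 85% as many windows as the most frequent one. Offsets at least 100 bp apart made separate positions, and the boundary of a unit lies in the gap before the largest. No test was run. Named items were Rn5s, genes next to the array, Acta1, the first, last, closest and most distant windows, each position, the flanking windows and 2 other runs; windows of units 16, 24, 26 and 39 to 42 were named after their values were seen. The steps were tried on simulated arrays with a main window in every unit and a second window in some. Those arrays had no shifted or late windows, so they did not check these groups. Genes come from RefSeq on GRCm38.p6, for names and order only. No promoter sequence was matched for the 50 5S entries, so no sequence or motif was analysed here. Software was numpy 2.4.6 and pandas 2.3.3 under Python 3.11.15, with matplotlib 3.10.9 for plots.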

Additional observations from a re-analysis of the deposited data

How the results depend on the processing

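The block held 74 windows under every joining distance tried (2, 5, 10 and 100 kb). Measured from the end of one window to the start of the next, the median distance was 950 bp, by construction 200 bp shorter. The most frequent pair distance moved from 1700 bp to about its double with wider tolerances, 3375 bp within 50 bp and 3325 bp within 100 bp, and to 3350 bp in the distal 37 windows; it stayed 1700 bp with exact matches and in the proximal 37 windows. The share of windows with a partner at 1700 bp fell from 63.5% to 39.2% with exact matches and was 62.2% to 71.6% in the other alternatives. The unit length was 1690 to 1700 bp except when any fold was allowed, where it was 565 bp. The line through the leading windows used units numbered on the 1694 bp fold, so it was not a separate estimate. The number of positions was 3, and 4 with groups at least 50 bp apart and in the proximal 37 windows with their own unit. Windows per unit were 1.48 by the slope of the line. The units with 1 window at the first position numbered 50 with each unit length tried. The searches for motifs, exact and with 1 mismatch, were not run, because no 5S sequence was matched. Free folding, the sum of 3 harmonics, the line and the other unit lengths were chosen after seeing the data. No paired analysis was possible because there is only 1 library per group, and no replicate could be left out. With unknown depth, an empty position is not absence of binding.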
